A study of Mus musculus with 6 samples.

Results

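Krt8, Krt18, Krt7, Krt19 and Epcam, the simple epithelial keratins and an epithelial adhesion molecule, were followed in 3 kinds of cultured mouse cells on Agilent oligonucleotide arrays. They are 5 of the 12362 genes named on the array. All non-control probes whose gene name mapped to them were taken, whatever their values, which gave 8 probes of the 41006 on the array: 1 for Krt8, 2 for Krt18, 2 for Krt7, 1 for Krt19 and 2 for Epcam. All 8 were among the 39403 probes that passed the filter on dim signal and were tested.

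The series title concerns the reconstitution of blood by multipotent adult progenitor cells (MAPC), and the arrays set MAPC beside embryonic stem cells (ESC) and neurospheres (NS), with 2 arrays for each kind of cell. The MAPC were grown from mouse bone marrow in 2% fetal calf serum at 5% O2 with EGF and PDGF-BB at 10 ng/mL and LIF at 1000 units/mL. CD45+ and Ter119+ cells had been removed after 4 weeks, the rest had been replated at 10 cells per well, and the cells were past 80 population doublings. Both MAPC arrays carry the title mMAPC-1 and the description of a single clone, clone 2 (high Oct4), so they do not sample several clones. The ESC were C57BL/6 cells kept in 15% fetal calf serum with LIF on irradiated embryonic fibroblasts and plated without feeders before RNA was taken. The NS were C57BL/6 neuroepithelial cells of the E11.5 forebrain grown in N2-plus medium with bFGF and EGF at 20 ng/mL. No genotype other than the strain is given, no strain is given for MAPC, and effects of the culture medium cannot be told apart from those of cell type. The series design calls the replicates biological. Nothing else says how they were separated, so p-values measure the spread between these arrays, and in MAPC the spread within 1 clone.

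Each array was hybridised with Cy3-labelled sample RNA and a common Cy5-labelled RNA pool made of 11 mouse cell lines; no dye swap was made. A value below is the log2 ratio of sample to pool after background correction and normalization within the array, so that 0 means the level of the pool, and a signal is the Cy3 brightness above the local background in scanner units. A difference is between the group means of the log2 ratios, with the moderated standard error (SE) of limma fitted over all tested probes. A probe was called when its Benjamini-Hochberg adjusted p in that comparison was below 0.05. Between 91.9% and 99.6% of probe spots on an array were marked well above background, so that mark alone says little. The brightest of 314 negative control spots had a signal of 39.9 and 165 on MAPC replicates 1 and 2, 10.2 and 83.3 on those of ESC, and 30.5 and 69.1 on those of NS. Where a named gene lay below it on both arrays of a group with which a difference is given, its signal was at the height of the controls there, which is said beside the gene, and the fitted log2 difference from that group gives a direction whose size is not settled. The brightest control was dimmest on ESC replicate 1, so a gene that cleared it only there may still be dim in ESC. Array replicates correlated at 0.987 in MAPC, 0.979 in ESC and 0.989 in NS over all tested probes. Of the genes that mark the 3 kinds of cell, Sox2, a pluripotency and neural progenitor factor, had signals of 10.6 and 17.9 in MAPC, 9520 and 10100 in ESC, and 12600 and 16000 in NS, with both MAPC arrays below the brightest negative control. Nes, an intermediate filament of neural progenitors, had signals of 92.8 and 88.3 in MAPC, 148 and 199 in ESC, and 1580 and 1530 in NS. Pou5f1, which encodes Oct4, had signals of 121 and 163 in MAPC, 1420 and 1280 in ESC, and 53.4 and 59.1 in NS. Ptprc, which encodes the leukocyte antigen CD45, had signals of 8.16 and 11.6 in MAPC, below the brightest negative control on both arrays. Its signals were as dim elsewhere, 13 and 15.3 in ESC and 15.8 and 3.26 in NS, with only ESC replicate 1 above that control. Ptprc was not called in any comparison.

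Keratins are intermediate filament proteins that assemble as obligate pairs of a type II and a type I chain. Krt8 and Krt7 are type II chains, Krt18 and Krt19 are type I chains, and Krt8 with Krt18 is the characteristic pair of single-layered epithelia and among the first keratins of the mouse embryo, where trophectoderm and the extraembryonic endoderm make them. Epcam is a membrane glycoprotein of epithelial cells that is also present on undifferentiated mouse embryonic stem cells, and it associates with claudins and tetraspanins.

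Krt8 and Krt18, the partners of that pair, had the same order of groups, MAPC above ESC above NS, at each of their 3 probes. Krt19 had that order as well, with smaller steps. Epcam had a different order at both probes, ESC above MAPC above NS. Krt7 had ESC highest at both probes, while its MAPC and NS levels were not separated by the test. In MAPC against ESC, all 8 probes were called, 4 higher (Krt8, both Krt18 probes, Krt19) and 4 lower (both Krt7 and both Epcam probes), beside 38.4% of all 39388 probes tested there (16.2% higher and 22.2% lower). In MAPC against NS, 6 of 8 were called, all higher, beside 44.2% of all 39387 probes tested (21.8% higher and 22.3% lower). In ESC against NS, 8 of 8 were called, all higher, beside 38.6% of all 39396 probes tested (20.4% higher and 18.2% lower). The median difference over the 8 probes was 0.25 in MAPC against ESC, 2.47 in MAPC against NS and 2.16 in ESC against NS, while the medians over all tested probes were 0.012, 0.034 and 0.01. The arrays of the groups did not overlap at any of the 8 probes in any comparison, which also held for 68.5%, 72.6% and 65.5% of all probes in these comparisons. The 3 comparisons share arrays and are not independent of one another.

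**Figure D1:**
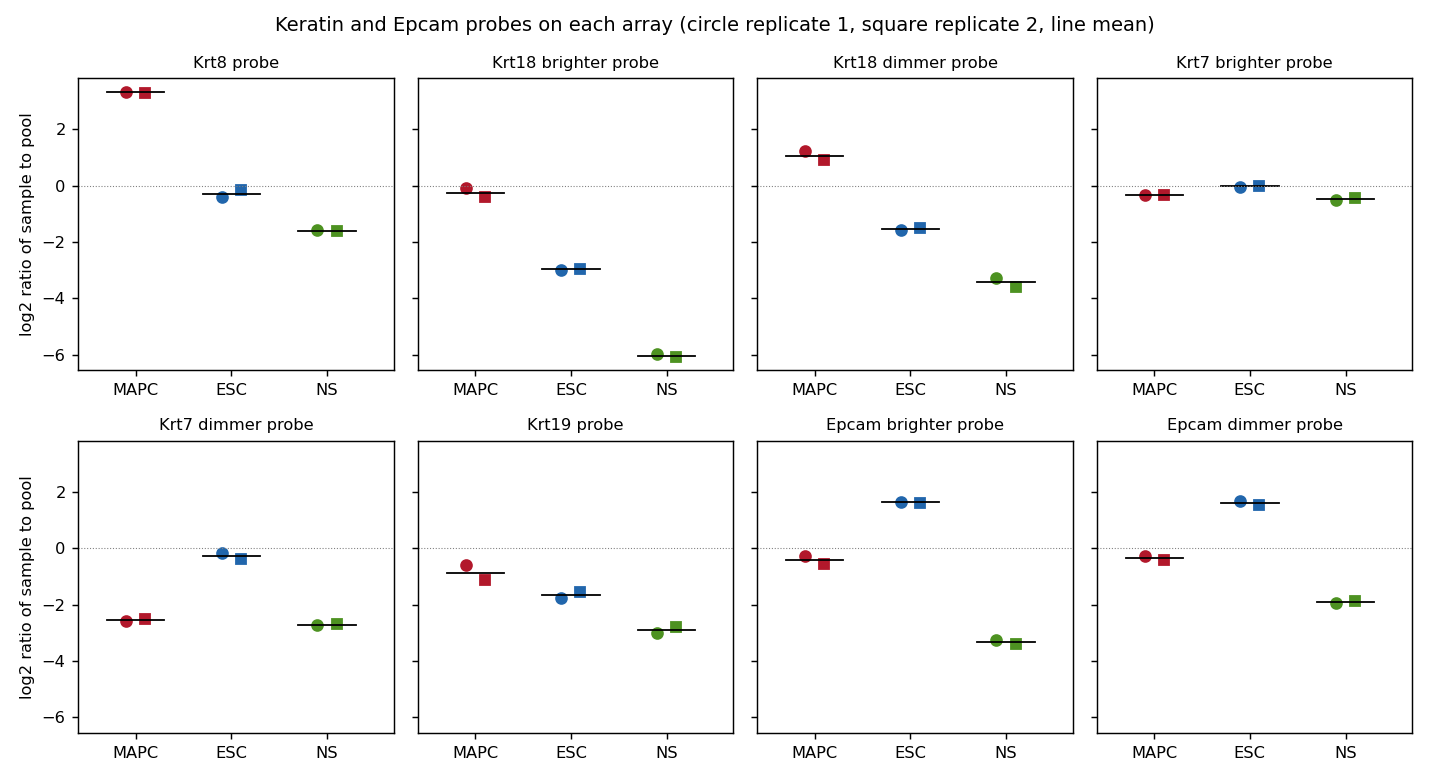
Log2 ratio of sample to pool (vertical axis) for the 8 probes, 1 panel each, in MAPC, ESC and NS; circles are replicate 1, squares replicate 2, and the line is the mean of the 2 arrays. Krt8 and both Krt18 probes step down from MAPC to ESC to NS, whereas both Epcam probes peak in ESC, and the 2 Krt7 probes differ in how far ESC stands above the others.

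Krt8 encodes keratin 8, the type II chain. Its only probe (RefSeq NM_031170.1, chromosome 15) is shown because the comparison of keratin 8 rests on these 60 bases alone.
Krt8 probe: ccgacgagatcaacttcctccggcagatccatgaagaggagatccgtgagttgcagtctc
No other probe among the 40998 searched shared a run of 20 bases with it or with another gene's probe in this set. RefSeq lists 1 Krt8 pseudogene, whose sequence was not compared with the probe.

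The Krt8 log2 ratios were 3.33 and 3.30 in MAPC, -0.40 and -0.17 in ESC, and -1.59 and -1.60 in NS. Both MAPC arrays stood far above the pool and both ESC and NS arrays below it, and the 2 arrays of a group lay close together. MAPC exceeded ESC by 3.60 ± 0.0794 (SE, n = 2 arrays each), a 12.1-fold difference (limma adjusted p = 4.7e-08). MAPC exceeded NS by 4.91, and ESC exceeded NS by 1.31, a 2.48-fold difference (limma adjusted p = 7.94e-09 and 6.26e-06). The signals were 1930 and 1680 in MAPC, 88.9 and 120 in ESC, and 22.4 and 14.8 in NS. In NS they lay below the brightest negative control of the same array, which had 30.5 and 69.1, although above 99% and 98.7% of the negative controls. The size of a difference from NS therefore moved with the background correction, from 2.97 without subtraction to 6.41 with no normexp offset for MAPC against NS, and between 0.37 and 2.58 for ESC against NS, and every one of these was called.

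Krt18 encodes keratin 18, the type I partner of keratin 8, and its gene lies next to Krt8 on chromosome 15, with 0 protein-coding genes between them in the RefSeq annotation. It had a brighter and a dimmer probe (both RefSeq NM_010664.1), which share no run longer than 5 bases and so read the transcript at separate places. The dimmer one is shown because it reads another stretch of the transcript, although in the same RNA on the same arrays.
Krt18 dimmer probe: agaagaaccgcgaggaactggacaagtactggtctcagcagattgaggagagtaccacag

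At the brighter Krt18 probe the log2 ratios were -0.10 and -0.42 in MAPC, -3 and -2.95 in ESC, and -5.99 and -6.08 in NS. MAPC was thus near the level of the pool, which includes kidney, mammary gland and skin lines, and NS was far below it. The signals were 35600 and 25200 in MAPC, 3690 and 3820 in ESC, and 325 and 327 in NS, all clear of every negative control and none saturated. MAPC exceeded ESC by 2.71 ± 0.102 (SE, n = 2 arrays each), a 6.56-fold difference (limma adjusted p = 5.44e-07), and NS by 5.77, a 54.8-fold difference (limma adjusted p = 1.06e-08). ESC exceeded NS by 3.06, an 8.34-fold difference (limma adjusted p = 3.05e-07). The 5.77 of MAPC against NS moved between 5.16 and 6.37 over the other ways of processing this probe, and the mean of both Krt18 probes gave 5.13.

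At the dimmer Krt18 probe the log2 ratios were 1.21 and 0.90 in MAPC, -1.58 and -1.49 in ESC, and -3.27 and -3.59 in NS. The order of the groups was that of the brighter probe. MAPC exceeded ESC by 2.59 ± 0.129, close to the brighter probe's 2.71, with a gap of 0.13 between the 2 probes. MAPC exceeded NS by 4.48 and ESC exceeded NS by 1.89 (limma adjusted p = 9e-08 and 1.19e-05), which were 1.29 and 1.17 less than at the brighter probe. The NS signals of the dimmer probe were 55.7 and 46.6, the first above and the second below the brightest negative control of its array (30.5 and 69.1). Its difference between MAPC and NS ran from 2.79 to 5.33 over the ways of processing and was called in each.

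Krt19 encodes keratin 19, the smallest type I keratin, which pairs with Krt8 or Krt7 in ducts and other simple epithelia. Its probe (RefSeq NM_008471.1, chromosome 11) gave log2 ratios of -0.59 and -1.13 in MAPC, -1.78 and -1.55 in ESC, and -2.99 and -2.79 in NS. All 6 arrays were below the pool, and the 2 MAPC arrays differed from each other more than the 2 arrays of either other group. The signals were 2670 and 1550 in MAPC, 1020 and 1260 in ESC, and 392 and 507 in NS, well clear of the negative controls. MAPC exceeded ESC by 0.80 ± 0.168 (SE, n = 2 arrays each), a 1.75-fold difference (limma adjusted p = 0.0062). MAPC exceeded NS by 2.03, a 4.07-fold difference, and ESC exceeded NS by 1.22, a 2.33-fold difference (limma adjusted p = 2.87e-05 and 0.000635). The step from ESC to MAPC rested in part on MAPC replicate 1: it was 0.54 without that array (limma adjusted p = 0.0153) and 1.07 without MAPC replicate 2 (limma adjusted p = 0.000664). Between arrays whose images were extracted on the same day it was 1.19 for replicate 1 and 0.42 for replicate 2.

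Krt7 encodes keratin 7, a type II chain of ducts and other simple epithelia. Its 2 probes (both RefSeq NM_033073.2, chromosome 15) overlap by a run of 33 bases and differ in 27 bases each. Only these differing bases are shown, because the 2 probes gave differences of unlike size. The capitals in the dimmer one mark AATAAA, the letters of the polyadenylation signal.
Krt7 brighter probe, bases not in the other: tacccttttgtccatctcatgtccctg
Krt7 dimmer probe, bases not in the other: tggctttAATAAAgggcctctctgaga

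The brighter Krt7 probe varied least of the 8 across the cells. Its log2 ratios were -0.35 and -0.33 in MAPC, -0.04 and -0.02 in ESC, and -0.52 and -0.45 in NS, a range of 0.5 over all 6 arrays. MAPC was 1.24-fold lower than ESC, by -0.31 ± 0.0538 (SE, n = 2 arrays each, limma adjusted p = 0.00247). The sample channel alone gave -0.38 there and did not pass (limma adjusted p = 0.097). MAPC against NS was 0.15, with a 95% interval of 0.02 to 0.28 before adjustment, and was not called (limma adjusted p = 0.0563). It was -0.04 in the sample channel alone, so its sign is not settled. ESC exceeded NS by 0.46 (limma adjusted p = 0.000255), and the sample channel alone gave 0.33, which did not pass (limma adjusted p = 0.141).

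The dimmer Krt7 probe had log2 ratios of -2.57 and -2.50 in MAPC, -0.16 and -0.39 in ESC, and -2.73 and -2.68 in NS. Here ESC stood near the pool and both other groups far below it. MAPC was 4.78-fold lower than ESC, a difference of -2.26 ± 0.0817 (limma adjusted p = 4.63e-07), and ESC was 5.39-fold higher than NS (limma adjusted p = 3.21e-07). MAPC against NS was 0.17, with a 95% interval of -0.02 to 0.36 before adjustment, and was not called (limma adjusted p = 0.13). The signals were 31.6 and 39.1 in MAPC, 432 and 395 in ESC, and 36 and 35.5 in NS, and in MAPC both lay below the brightest negative control. The 2 probes therefore differed by 1.95 in MAPC against ESC and by 1.97 in ESC against NS, but by 0.02 in MAPC against NS. Signals of the brighter probe were 1600 and 1600 in MAPC, 2100 and 2690 in ESC, and 1390 and 2050 in NS, with no group near the negative controls. What the brighter probe measured besides Krt7, if anything, was not tested, and the size of a change in Krt7 is not settled by these 2 probes.

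Epcam was reported by a brighter and a dimmer probe (both RefSeq NM_008532.1, chromosome 17) that share no run longer than 6 bases. The brighter one is shown because it carries the widest differences.
Epcam brighter probe: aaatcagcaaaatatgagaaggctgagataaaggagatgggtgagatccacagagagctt

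At the brighter Epcam probe the log2 ratios were -0.28 and -0.55 in MAPC, 1.63 and 1.62 in ESC, and -3.26 and -3.39 in NS. ESC was above the pool, MAPC slightly below it and NS far below it. The signals were 699 and 490 in MAPC, 3690 and 3270 in ESC, and 48.8 and 40.9 in NS, where only the first lay above its array's brightest negative control. MAPC was 4.11-fold lower than ESC, a difference of -2.04 ± 0.0934 (SE, n = 2 arrays each, limma adjusted p = 1.52e-06). MAPC was 7.5-fold higher than NS, a difference of 2.91 (limma adjusted p = 1.52e-07). ESC was 30.8-fold higher than NS, a difference of 4.94 (limma adjusted p = 3.21e-08). That difference ran from 3.2 to 5.87 over the other ways of processing, so the fold is not settled.

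At the dimmer Epcam probe the log2 ratios were -0.26 and -0.41 in MAPC, 1.68 and 1.52 in ESC, and -1.94 and -1.87 in NS. MAPC was lower than ESC by a log2 difference of -1.93, within 0.1 of the brighter probe. MAPC exceeded NS by 1.57, and ESC exceeded NS by 3.51, which were 1.33 and 1.44 less than at the brighter probe, and all 3 were called (limma adjusted p between 5.32e-08 and 1.43e-06). The NS signals of 27.1 and 30.2 were below the brightest negative controls. With no background subtraction MAPC against NS was 1.41 at the brighter and 0.55 at the dimmer probe, and it was at most 3.78 and 2.56 under the other settings. ESC against NS at the dimmer probe ran from 1.9 to 4.65 over these settings.

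**Figure D2:**
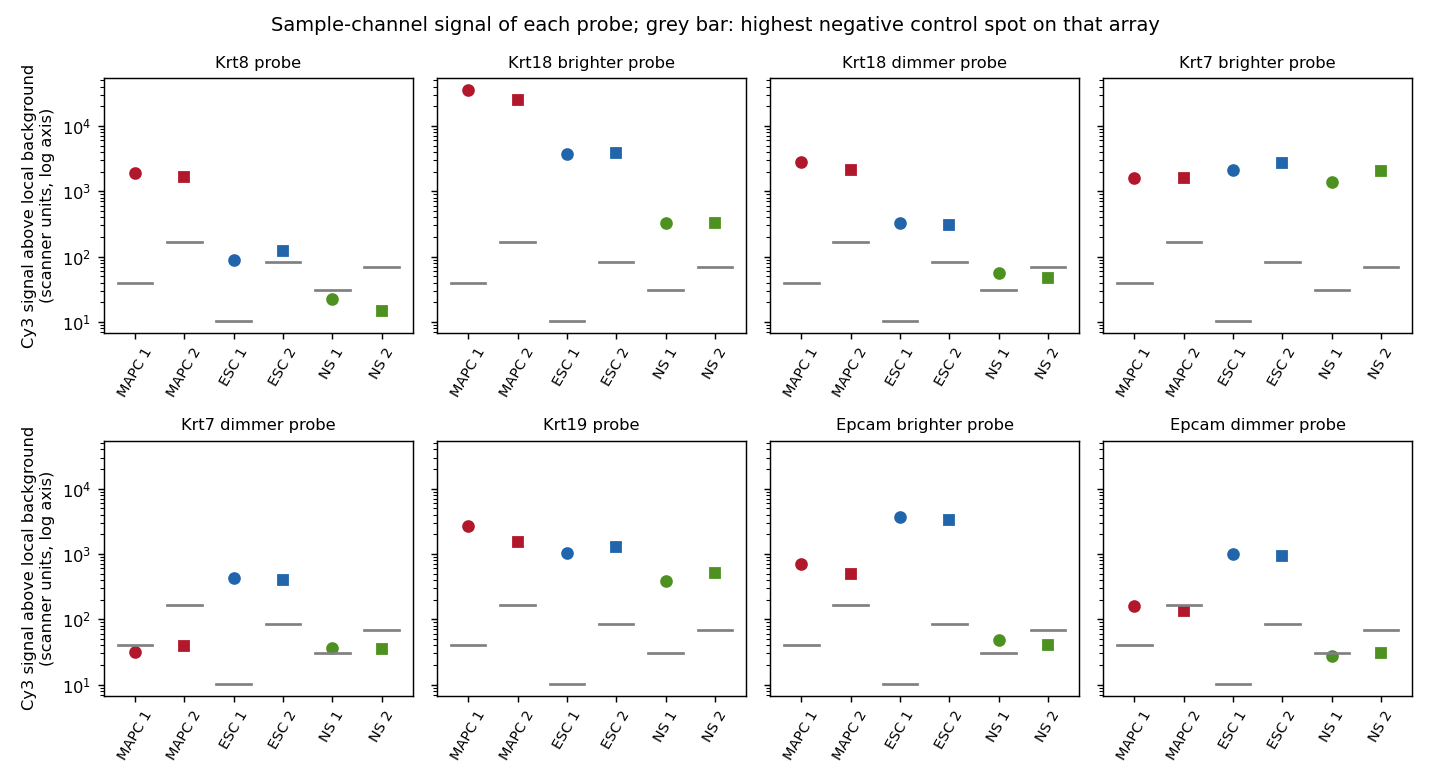
Cy3 signal above local background in scanner units (vertical log axis) of each probe on each array, with replicates 1 and 2 of MAPC, ESC and NS along the horizontal axis; the grey bar is the highest of 314 negative control spots on that array. The NS signals of Krt8 (22.4 and 14.8) and of the dimmer Epcam probe lie below their grey bars, and the brighter Krt18 probe lies above every bar, at 325 and 327 even in NS.

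The pool side of these ratios was stable. For each of the 8 probes the highest pool signal over the 6 arrays was 1.18 to 1.64 times the lowest, while the sample signals of the brighter Krt18 probe spanned 325 to 35600. Array images were extracted on 2 days, each holding 1 array of every group, so the day is the same as the replicate number. Within the 2 days, MAPC against ESC was 3.73 and 3.47 for Krt8, 2.90 and 2.53 for the brighter Krt18 probe, and -1.91 and -2.17 for the brighter Epcam probe. MAPC against NS was 4.91 and 4.90 for Krt8, 5.90 and 5.65 for the brighter Krt18 probe, and 2.98 and 2.83 for the brighter Epcam probe. The day as a term in the fit left the calls of all 8 probes as they were in each comparison.

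**Figure D3:**
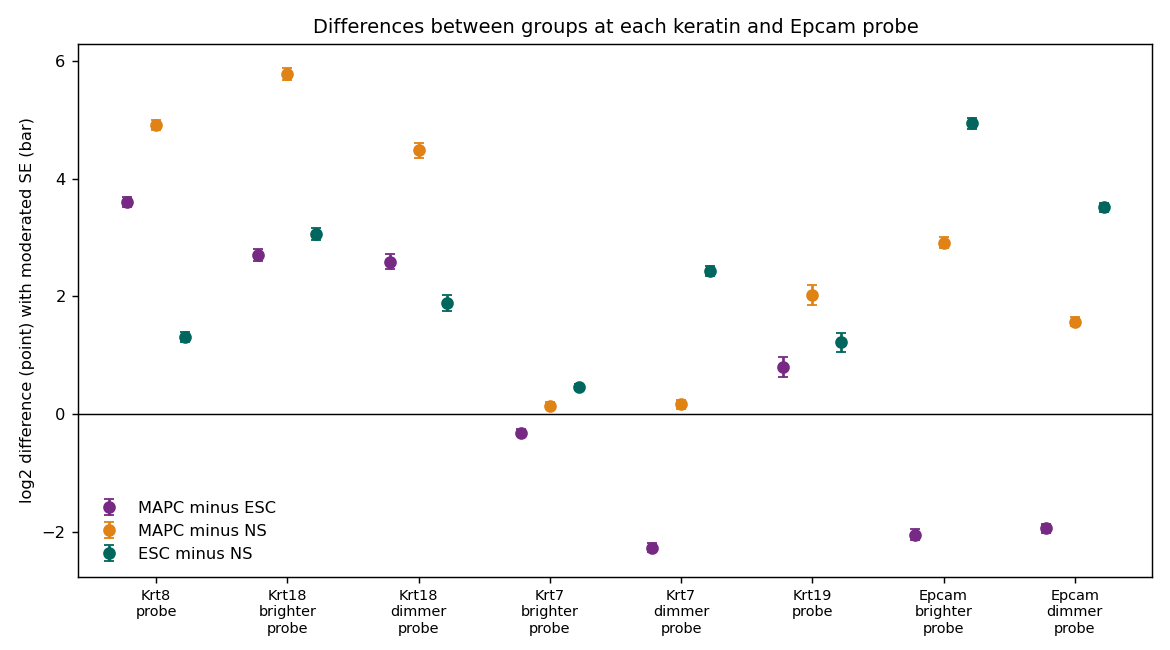
Log2 difference between groups (vertical axis) at each of the 8 probes for MAPC minus ESC, for MAPC minus NS and for ESC minus NS; points are differences and bars the moderated SE. Krt8 and both Krt18 probes are positive in all 3, from 1.31 to 5.77, and both Epcam probes are negative in MAPC minus ESC (-2.04 and -1.93) and positive in the others.

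The other keratins that the array holds were set beside these. Of 29 type I and type II keratins listed, 16 had a tested probe. In MAPC against ESC, 4 were called higher, 4 lower and 8 not, with a median of 0. In MAPC against NS, 3 were called higher, 0 lower and 13 not, and in ESC against NS, 4 higher, 0 lower and 12 not. Over all tested probes, 16.2% were called higher and 22.2% lower in MAPC against ESC. These shares were 21.8% and 22.3% in MAPC against NS, and 20.4% and 18.2% in ESC against NS. No list was tested against these shares, here or below. The count of 8 called in MAPC against ESC fell to 5 without MAPC replicate 1 and to 4 without ESC replicate 1. Krt23, a type I keratin of epithelial cells, had log2 ratios of 3.07 and 3.24 in MAPC, -0.17 and -0.14 in ESC, and -0.09 and -0.05 in NS, where both signals lay below the brightest negative control. Its ESC signals of 11.7 and 28.2 were also dim, and only the first lay above its array's brightest negative control. Krt23 was higher in MAPC than in ESC by 3.31 and than in NS by 3.23 (limma adjusted p = 3.64e-08 and 2.21e-08), and neither size is settled. Krt17, a type I keratin of stratified and stressed epithelium, ran the other way, with log2 ratios of 0.09 and 0.04 in MAPC, 3.09 and 2.82 in ESC, and 0.08 and -0.03 in NS. Its signals were 12.5 and 13.1 in MAPC, 347 and 286 in ESC, and 24.9 and 6.6 in NS, below the brightest negative controls in MAPC and NS. The difference was -2.89 in MAPC against ESC and 2.93 in ESC against NS (limma adjusted p = 2.75e-07 and 2.56e-07). Krt20 and Krt13 were lower in MAPC than in ESC, by log2 differences of -0.75 and -0.42 (limma adjusted p = 0.00521 and 0.000517), and Krt20 lay below the brightest negative control on both MAPC arrays.

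The pair of basal stratified epithelium, Krt5 and Krt14, gave only small differences. Krt14 was higher in MAPC than in ESC by 0.39 and than in NS by 0.42 (limma adjusted p = 0.0142 and 0.00961), with signals of 54.8 and 51.3 in MAPC, 39.4 and 64.3 in ESC, and 40.5 and 36.5 in NS, below the brightest negative control on 1 array of each group. Krt5 was higher in MAPC than in ESC by 0.21 (limma adjusted p = 0.0238) and its 0.17 in MAPC against NS was not called (limma adjusted p = 0.0531). Krt16 was higher in MAPC than in NS by 0.59 (limma adjusted p = 0.00144). Of 8 tested markers of stratified epithelium and keratinocytes, 3 were called higher and 1 lower in MAPC against ESC, and 2 higher and 0 lower in MAPC against NS. The widest was Lor, which encodes loricrin of the cornified envelope, higher in MAPC than in ESC by 2.11 and than in NS by 0.58 (limma adjusted p = 1.67e-07 and 0.000125), and with -1.53 in ESC against NS (limma adjusted p = 7.57e-07). Lor was named after its values were seen. The summed signal of the 8 ranged from 1840 to 2190 in MAPC, 1310 to 1910 in ESC and 1700 to 1910 in NS. Trp63, the regulator of stratified epithelium, was not called in any comparison (differences of 0.09, 0.15 and 0.06).

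Among 9 other intermediate filament genes, 0 were called higher and 6 lower in MAPC against ESC (median -0.5), and 1 higher and 4 lower in MAPC against NS (median -0.17). In ESC against NS, 6 were higher and 3 lower. Nes was lower in MAPC than in ESC by a log2 difference of -0.53, and than in NS by -3.10 (limma adjusted p = 0.000473 and 2.75e-08). Nefm, the middle neurofilament chain, differed by -2.11 in MAPC against NS (limma adjusted p = 1.5e-07). Prph, the peripherin of peripheral neurons, and Lmnb2, a nuclear lamin, differed by -0.80 and -0.90 in MAPC against ESC (limma adjusted p = 2.54e-05 and 2.51e-05). Nefm and Prph lay below the brightest negative control on both MAPC arrays. Lmnb1, another nuclear lamin, was higher in MAPC than in NS by 0.63 (limma adjusted p = 0.000271). Vim, the vimentin of mesenchymal and neural progenitor cells, was bright in all groups, with signals of 25000 and 22000 in MAPC, 23400 and 31800 in ESC, and 65200 and 65200 in NS, and was marked saturated in at least 1 channel on every array, so no fold is given. The counts above still include Vim among the genes called lower in MAPC against NS and in ESC against NS.

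Of 11 tested genes for keratin linkers and desmosomes, the junctions that anchor keratin filaments, 0 were called higher and 6 lower in MAPC against ESC (median -0.16). In MAPC against NS, 2 were called higher and 2 lower, and in ESC against NS, 6 higher and 1 lower. Perp, a desmosomal tetraspan protein, had log2 ratios of -4.18 and -4.18 in MAPC, 0.12 and 0.38 in ESC, and -3.83 and -3.82 in NS, and its MAPC signals of 22.6 and 23.8 lay below the brightest negative controls. Its difference was -4.43 in MAPC against ESC and -0.36 in MAPC against NS (limma adjusted p = 2.68e-08 and 0.00969). Pkp2, the plakophilin of simple epithelia and heart, was lower in MAPC than in ESC (-0.78) and higher than in NS (1.00) (limma adjusted p = 0.000493 and 9.26e-05). Pkp3, a further plakophilin, was lower in MAPC than in ESC by a log2 difference of -1.43 (limma adjusted p = 1.37e-06), with -0.44 at its other probe. Jup, which encodes plakoglobin, did not differ past the threshold between MAPC and ESC (0.02) and was higher in MAPC than in NS by 0.85 (limma adjusted p = 2.38e-05). Dsc2, a desmosomal cadherin, was lower in MAPC than in NS by a log2 difference of -1.05 (limma adjusted p = 2.98e-06), with both MAPC signals below the brightest negative control. Plec, which encodes the linker plectin, was not called in any comparison, with differences of 0, 0.03 and 0.04.

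Of 19 tested genes of epithelial adhesion and tight junctions, 4 were called higher and 10 lower in MAPC against ESC (median -0.29), 8 higher and 2 lower in MAPC against NS (median 0.22), and 12 higher and 0 lower in ESC against NS (median 0.46). Cdh1, which encodes E-cadherin, the adhesion receptor of epithelial junctions, had signals of 43.2 and 36.7 in MAPC, 1880 and 1690 in ESC, and 27.7 and 31.3 in NS. MAPC was thus lower than ESC in Cdh1, by a log2 difference of -3.24 (limma adjusted p = 2.61e-08). The difference of 0.26 between MAPC and NS passed the threshold (limma adjusted p = 0.00919), but both NS signals and that of MAPC replicate 2 lay below the brightest negative control. Cldn4, Crb3 and Tjp3, a claudin, an apical polarity protein and a tight junction scaffold, differed by -3.35, -2.68 and -3.45 in MAPC against ESC (limma adjusted p = 8.43e-07, 8.89e-06 and 3.1e-07), and all 3 lay below the brightest negative control on both MAPC arrays. F11r, a junctional adhesion molecule, had the order of Epcam, with -2.10 in MAPC against ESC and 1.86 in MAPC against NS (limma adjusted p = 2.28e-05 and 3.31e-05). Patj, an adaptor of the apical Crumbs complex, was higher in MAPC than in ESC by 1.55 and than in NS by 2.13 (limma adjusted p = 6.45e-07 and 8.01e-08). Cldn3 was lower in MAPC than in both others, by log2 differences of -0.92 from ESC and -0.80 from NS (limma adjusted p = 0.00013 and 0.00023).

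**Figure D4:**
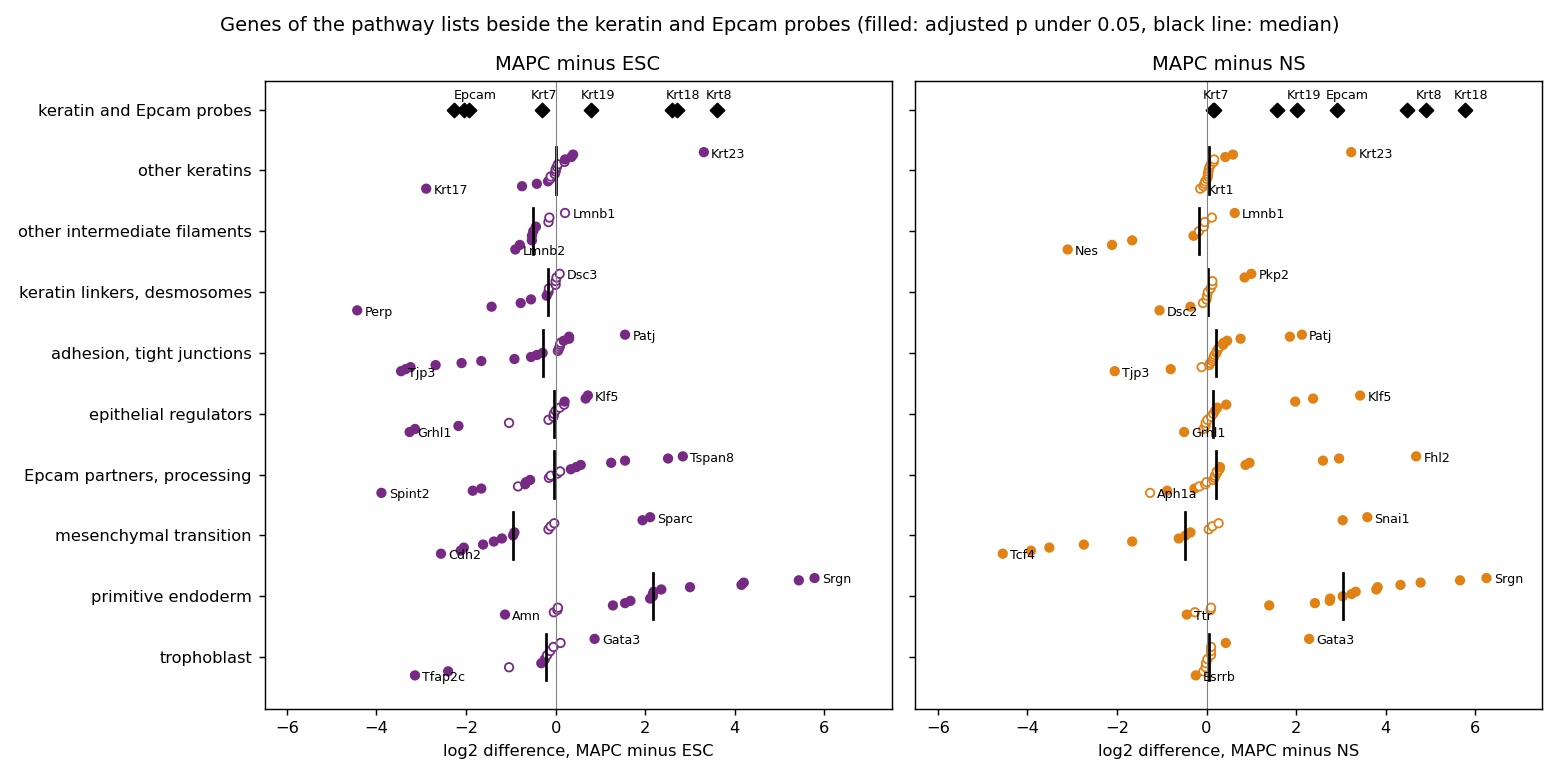
Log2 differences (horizontal axis) in MAPC minus ESC (left) and MAPC minus NS (right) of the 8 keratin and Epcam probes (diamonds, top row) and of the genes in each list (circles, 1 row per list); filled circles have adjusted p under 0.05, black lines are list medians, and the names mark the 2 ends of each row. The primitive endoderm list has medians of 2.17 and 3.04, while the adhesion and tight junction list has -0.29 and 0.22.

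Of 18 tested genes that associate with Epcam or process it, 7 were called higher and 6 lower in MAPC against ESC (median -0.04), 7 higher and 2 lower in MAPC against NS, and 8 higher and 3 lower in ESC against NS. Cldn7, a claudin that binds Epcam, was lower in MAPC than in ESC at both of its probes, by log2 differences of -1.66 (limma adjusted p = 0.000216) and -2.17. Spint2, an inhibitor of the serine proteases that cleave Epcam, differed by -3.89 in MAPC against ESC and by 4.12 in ESC against NS (limma adjusted p = 7.26e-08 and 6.76e-08). St14, which encodes the membrane protease matriptase, was lower in MAPC than in ESC by a log2 difference of -1.85 at its brighter probe (limma adjusted p = 1.82e-05), while the other probe gave 0.1. Tspan8 and Cd9, tetraspanins, were higher in MAPC than in ESC by 2.84 and 2.51, and than in NS by 2.6 and 2.96 (limma adjusted p between 2.4e-08 and 2.09e-06). Tspan8 signals in NS, 29.8 and 37.4, lay below the brightest negative control on both arrays. Those in ESC were dimmer, 13.3 and 21.2, and only the first lay above its array's brightest negative control. The size of the Tspan8 difference is therefore not settled from either group. Fhl2, a LIM-domain protein that binds the intracellular part of Epcam, was higher in MAPC than in ESC by 1.24 and than in NS by 4.68 (limma adjusted p = 8.75e-05 and 4.83e-08).

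Of 13 tested regulators of epithelial transcription and splicing, 3 were called higher and 3 lower in MAPC against ESC, 6 higher and 1 lower in MAPC against NS, and 6 higher and 0 lower in ESC against NS. The count of 7 called in MAPC against NS was 4 without MAPC replicate 1 and 4 without NS replicate 1. Grhl1, Tfap2c and Ovol2, epithelial transcription factors, differed by -3.26, -3.14 and -2.17 in MAPC against ESC (limma adjusted p = 1.79e-07, 3.74e-07 and 3.05e-06). In MAPC, Grhl1 and Tfap2c lay below the brightest negative control on both arrays and Ovol2 on 1. Klf5, a Krüppel-like factor of epithelia and of pluripotent cells, was higher in MAPC than in ESC by 0.72 and than in NS by 3.43 (limma adjusted p = 8.9e-05 and 1.86e-08). Klf4 and Elf3, an ETS factor of epithelial cells, were higher in MAPC than in NS by 2.38 and 1.98 (limma adjusted p = 2.24e-07 and 1.58e-06), although the other Elf3 probe gave 0.3 and both NS signals of Elf3 lay below the brightest negative control. Grhl2, a direct regulator of Cdh1 and Cldn4 in mouse epithelia, was not called in any comparison (-0.04, 0.02 and 0.05), and its signals of 31.5 and 40.1 in MAPC lay below the brightest negative control on both arrays.

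Of 13 tested regulators and markers of mesenchymal transition, 2 were called higher and 8 lower in MAPC against ESC (median -0.95), and 2 higher and 8 lower in MAPC against NS (median -0.47). Fibroblast markers moved with this list: 10 of 11 were lower in MAPC against ESC (median -2.2) and 8 of 11 in MAPC against NS (median -0.32), Twist2 is in both lists, and their part in it was not tested. The saturated Vim is counted among the transition genes called lower in MAPC against NS, and stands in the list of intermediate filaments too. Snai1, a repressor of Cdh1, had log2 ratios of 2.94 and 3.16 in MAPC, 0.93 and 1.28 in ESC, and -0.45 and -0.63 in NS. It was higher in MAPC than in ESC by 1.94 and than in NS by 3.59 (limma adjusted p = 1.05e-05 and 2.58e-07). Sparc, a secreted matrix protein, was the other gene called higher, by 2.11 and 3.04 (limma adjusted p = 2.62e-07 and 2.75e-08). Cdh2, which encodes N-cadherin, was lower in MAPC by log2 differences of -2.56 from ESC and -3.51 from NS (limma adjusted p = 2.6e-07 and 3.4e-08). Zeb1 was not called between MAPC and ESC (-0.11) and was lower in MAPC than in NS by a log2 difference of -2.74 (limma adjusted p = 2.06e-08), and Zeb2 was lower than in both, by -2.05 and -3.92 (limma adjusted p = 1.91e-07 and 7.68e-09). Twist1 was lower in MAPC than in ESC by a log2 difference of -2.12, and Tcf4 than in NS by -4.55 (limma adjusted p = 5.39e-06 and 1.93e-08). Zeb1, Zeb2 and Twist1 lay below the brightest negative control on both MAPC arrays.

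Primitive endoderm and trophoblast are the early embryonic lineages that make Krt8 and Krt18. Of 17 tested primitive endoderm genes, 13 were called higher and 1 lower in MAPC against ESC (median 2.17), and 13 higher and 1 lower in MAPC against NS (median 3.04). In ESC against NS, 11 were called higher and 2 lower (median 0.47). Sox17, an endoderm transcription factor, had log2 ratios of 5.30 and 5.32 in MAPC, -0.11 and -0.13 in ESC, and -0.38 and -0.32 in NS. Foxa2 and Sox7, further endoderm factors, were higher in MAPC than in ESC by 4.20 and 4.15 (limma adjusted p = 1.6e-08 and 2.58e-08), and Srgn, a secretory granule proteoglycan, by 5.78 (limma adjusted p = 1.98e-08). Other genes of the list did not rise. Hnf4a (-0.04), Ttr (0.05) and Apoa1 (0.04) were not called in MAPC against ESC, and Amn was lower by a log2 difference of -1.13 (limma adjusted p = 0.000128). Against NS, Ttr was lower in MAPC, by -0.44 (limma adjusted p = 0.00106), and Hnf4a, Apoa1 and Amn were not called. Of 10 tested trophoblast genes, 1 was called higher and 4 lower in MAPC against ESC (median -0.21), and 2 higher and 1 lower in MAPC against NS (median 0.06). In ESC against NS, 5 were called higher and 0 lower (median 0.37). Gata3, a trophoblast and lymphoid factor, was higher in MAPC by 0.87 than in ESC and by 2.29 than in NS (limma adjusted p = 0.000281 and 8.67e-07). Esx1, a placental homeobox gene, was lower in MAPC than in ESC by a log2 difference of -2.40 (limma adjusted p = 1.64e-07), with both MAPC signals below the brightest negative control, and Cdx2, a regulator of trophectoderm, was not called in any comparison.

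The ESC had been kept on fibroblasts. All 11 measured fibroblast markers lay above the brightest negative control on at least 1 ESC array, but so did all 10 measured leukocyte markers. That control had a signal of only 10.2 on ESC replicate 1, so clearing it says little about fibroblast RNA. The summed signal of the 11 fibroblast markers was 1370 to 1430 in MAPC, 17700 to 19600 in ESC and 8400 to 9600 in NS. Few genes carried these sums outside MAPC. Fbln2 alone had signals of 6960 and 8780 in ESC and 6260 and 7030 in NS, and was not called between them (-0.01). Postn had 8030 and 4410 in ESC. Of the 11, 0 were called higher and 10 lower in MAPC against ESC, and 9 higher and 1 lower in ESC against NS. The part of feeder RNA in the ESC levels of Krt8, Krt18, Krt7, Krt19, Epcam and the listed genes was not tested. In these bulk RNA samples, fewer cells that express a gene and less RNA per cell cannot be told apart. Of 10 tested leukocyte markers, 0 were called higher in MAPC in either comparison. In MAPC against ESC 3 were called lower, and in MAPC against NS 0. In ESC against NS 3 were called higher and 0 lower.

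Genes with the most similar pattern over the 6 arrays were ranked among 11981 named genes by the root mean square difference of their centred log2 ratios from those of the brightest probe, a likeness over 6 arrays of 3 groups. For Krt8 the closest included Eva1a (0.163), Xlr (0.229), Stard8 (0.271) and Cryab (0.281). Eva1a had differences of 3.88 in MAPC against ESC and 4.95 in MAPC against NS, beside 3.60 and 4.91 for Krt8. For Krt18 the closest were F3 (0.338), Tfpi (0.361), Procr (0.411), Cryab (0.511) and Gcnt1 (0.532). F3, the tissue factor that starts coagulation, had differences of 2.95 and 5.29, beside 2.71 and 5.77 for the brighter Krt18 probe. The 5 genes followed here were left out of the ranking, so Krt8 and Krt18 could not appear in each other's lists. For Krt19 the closest were Cxcl16 (0.154), Cdc6 (0.157), Hbegf (0.184), Ctsl (0.186) and Arid3a (0.19). For Epcam they were Hspb1 (0.315), Tuba4a (0.336), Dnmt3b (0.372), Cbx7 (0.454) and F11r (0.485). Dnmt3b, a DNA methyltransferase of early embryonic cells, had differences of -1.16 in MAPC against ESC and 3.22 in MAPC against NS, beside -2.04 and 2.91 for Epcam. No such list is given for Krt7, whose brighter probe varied by 0.5 over the arrays.

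The 250 bases before the annotated start of Krt8, Krt18 and Epcam, from RefSeq in build GRCm38.p6, are shown because Krt8 and Krt18 moved together while Epcam did not. The capitals mark the letters searched that were found: the E2 box CACCTG, on either strand, and the GC box GGGCGG, on either strand.
Krt8, chr15:102004343-102004592, minus strand: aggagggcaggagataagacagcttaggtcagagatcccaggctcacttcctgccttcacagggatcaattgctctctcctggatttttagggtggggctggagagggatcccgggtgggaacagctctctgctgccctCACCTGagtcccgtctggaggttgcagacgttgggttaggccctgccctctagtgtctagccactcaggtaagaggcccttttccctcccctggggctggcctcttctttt
Krt18, chr15:102027966-102028215, plus strand: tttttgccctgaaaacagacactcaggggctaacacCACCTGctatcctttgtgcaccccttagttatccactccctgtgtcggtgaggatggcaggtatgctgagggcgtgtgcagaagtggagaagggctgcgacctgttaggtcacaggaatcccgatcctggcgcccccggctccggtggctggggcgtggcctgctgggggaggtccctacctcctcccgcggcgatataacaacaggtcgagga
Epcam, chr17:87635729-87635978, plus strand: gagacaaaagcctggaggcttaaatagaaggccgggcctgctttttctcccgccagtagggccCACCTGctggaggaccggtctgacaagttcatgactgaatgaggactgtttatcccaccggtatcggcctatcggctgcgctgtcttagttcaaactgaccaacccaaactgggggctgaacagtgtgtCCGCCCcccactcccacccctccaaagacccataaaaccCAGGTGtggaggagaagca

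CACCTG, the letters bound by Snail and Zeb repressors among others, occurred once in the windows of Krt8, Krt18 and Krt7 and at 2 places in that of Epcam, and 17.1% of 27025 promoters of the same length hold it. GGGCGG occurred at 4 places in the Krt7 window and at 1 in that of Epcam, and not in those of Krt8 and Krt18, while 32.9% of all promoters hold it. TATAAA (13.0% of promoters), the AP-1 letters TGANTCA (6.87%), the grainyhead-like letters AACCNGTT (1.71%) and the SOX letters AACAAT (9.65%) were in none of the 4 windows on either strand. No match overlapped a match to another of these motifs. The windows held 58.0% G and C with 3 CpG in Krt8, 60.4% with 12 CpG in Krt18, 66.0% with 16 CpG in Krt7 and 56.4% with 8 CpG in Epcam, where the medians of all promoters were 52.0% and 6. Krt19 was matched to no entry of the promoter table.

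**Figure D5:**
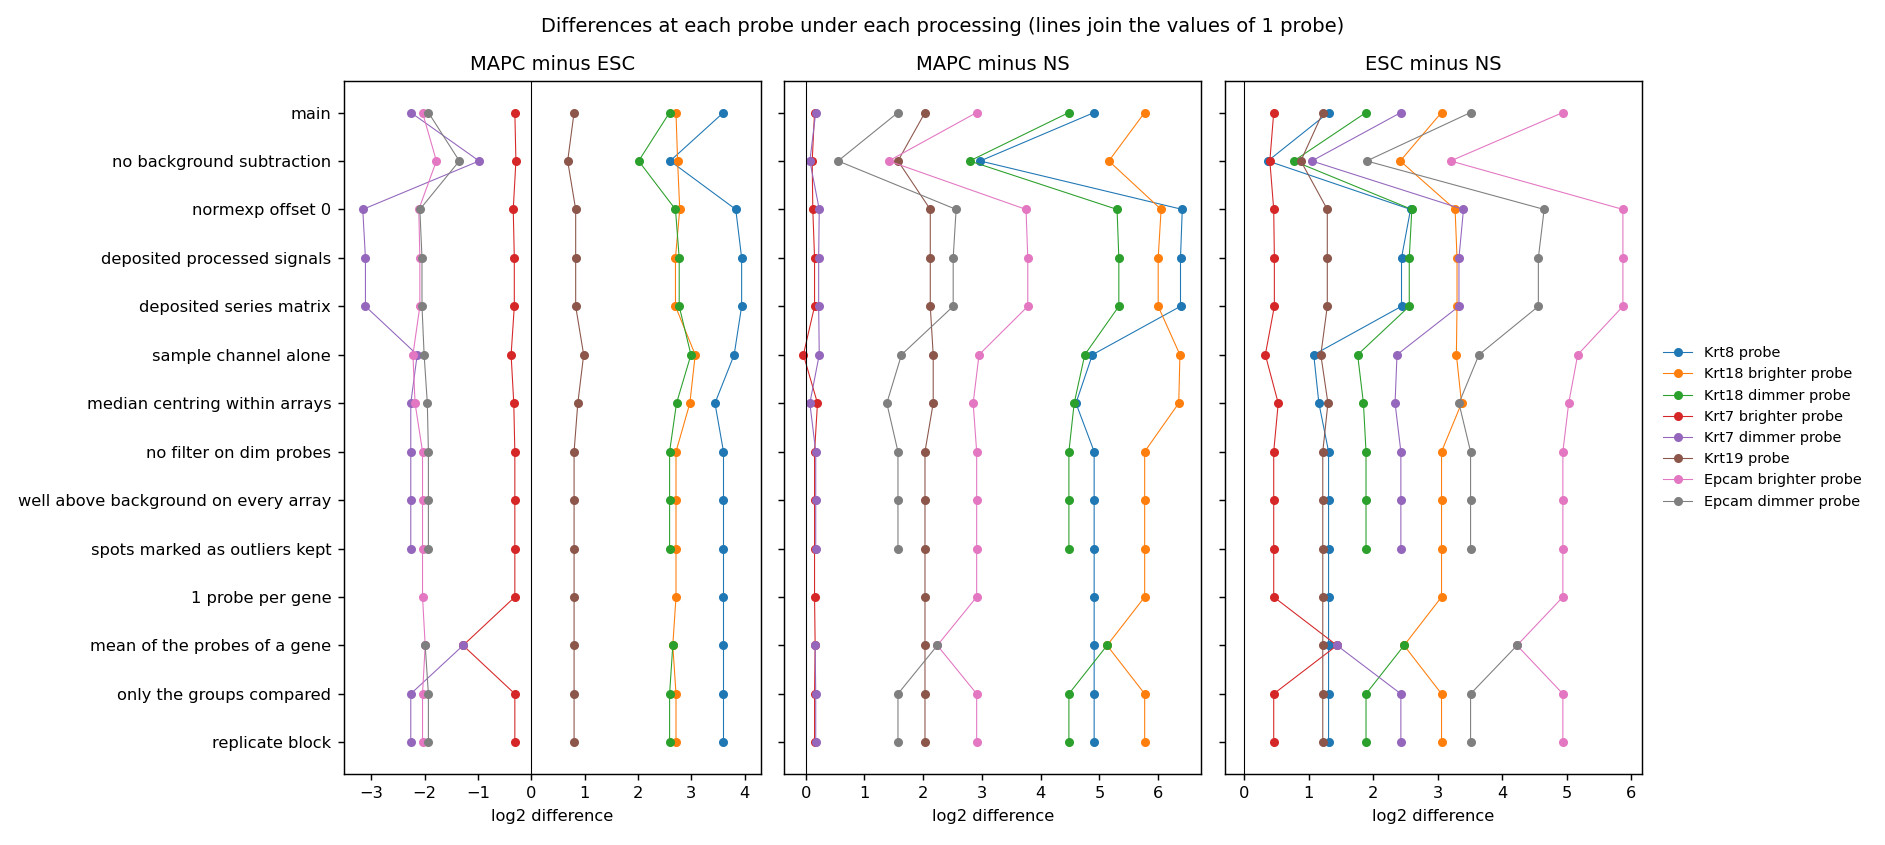
Log2 difference (horizontal axis) at each of the 8 probes under the main processing (top row) and each alternative (rows below), for MAPC minus ESC, for MAPC minus NS and for ESC minus NS; a line joins the values of 1 probe. Leaving out background subtraction pulls the differences of the dim probes towards 0 (Krt8 in ESC minus NS is 0.37 there), and the only value on the other side of 0 from the main one is the brighter Krt7 probe in MAPC minus NS, at -0.04 with the sample channel alone.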

How the data were processed

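The scanner files deposited by the authors hold the mean and local background intensity of each spot in both dyes, per the file headers (Agilent Feature Extraction, version A.7.5.1). The deposited processed intensities and the deposited series matrix in log10 units served as alternatives, and the deposited log10 ratios served to check that matrix. In the matrix, 90.1% of the spots not at its floor matched the deposited log10 ratio, once shifted by a constant per spot, within 0.001. Its column medians were 2.95 to 2.97, and its centring stays unknown.

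Here signals were corrected with normexp (offset 50), normalized within arrays by loess with control spots at weight 0, and turned into log2 ratios of sample to pool in limma 3.58.1 under R 4.3.3. Outlier-marked spots were dropped, and repeated spots of a probe were averaged. A probe was tested when Feature Extraction marked its Cy3 signal as well above background on the 2 arrays of any group. limma (lmFit, eBayes, all 3 groups in 1 fit) gave the p-values, adjusted by Benjamini-Hochberg over all probes tested in a comparison, and the script was tested on simulated data. Accessions gave names to 15294 of 41006 probes and symbols, current or older, to 135; the other 25577 stayed unnamed. For genes in lists, the brightest probe was used.

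The 5 genes, the lists and the tests were chosen with earlier results of these data known. Named were every probe of the 5 genes, in each list up to 4 genes with the widest called difference in a comparison, and a set of single genes whatever their values. Some genes that this rule and the ranking by likeness name are not reported here. Per-sample columns without a sample numbered 0. No 2 arrays of a group held identical values. Depth does not apply to arrays: their number limits the precision.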

Additional observations from a re-analysis of the deposited data

How the results depend on the processing

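Each difference at the 8 probes was recomputed without background subtraction, with a normexp offset of 0, from the deposited processed signals and series matrix, in the sample channel alone, with median centring, with other filters, with outlier spots kept, with 1 or the mean of a gene's probes, with only the groups compared, with the replicate number as a block, and without each array in turn. In MAPC against ESC 148 of 149 recomputed tests stayed on the same side of the threshold, in MAPC against NS 144 of 149, and in ESC against NS 148 of 149. These numbers count the mean of a gene's probes once under each of its probes. The exceptions were all in Krt7, and the cause was not tested, except that fits without an ESC array or with only the groups compared estimate the spread from fewer arrays. The brighter Krt7 probe in the sample channel alone gave -0.38 in MAPC against ESC and 0.33 in ESC against NS, neither called. In MAPC against NS it was called at 0.11 without background subtraction and at 0.20 with median centring, and it was -0.04 in the sample channel alone. The dimmer Krt7 probe in MAPC against NS was called at 0.17 with only the groups compared, and ranged from 0.14 to 0.21 without 1 array, being called at 0.17 without either ESC array. The mean of both Krt7 probes gave -1.28 in MAPC against ESC and 1.44 in ESC against NS.

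The replicate numbers were checked for pairing: deviations of same-numbered arrays from their group means correlated at 0.098, 0.157 and 0.208, and nothing in the labels pairs them, although image extraction days follow the numbers. With the replicate block, 15781 probes were called in MAPC against ESC, 18115 in MAPC against NS and 15735 in ESC against NS, against 15144, 17397 and 15214 without it, and the 8 probes kept 8, 6 and 8 calls. Over all alternatives these totals ran from 10204 to 15781, from 13432 to 18115 and from 10428 to 15735. Signals near the negative controls limit the size of differences from NS, of the dimmer Krt7 probe and of the listed genes that were dim in MAPC or ESC.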
